A study of Mus musculus with 4 samples.

Results

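The G2 and mitosis genes described here are 37 genes whose products carry a cell from the end of DNA replication through chromosome segregation and cytokinesis. They were read in 3T3-L1 cells, a mouse embryonic fibroblast line of preadipocytes that becomes fat cells when given adipogenic hormones. A member was found on the array through the accession of its probes, and where a gene had several probes the brightest one stands for it. All 37 members were found, among 20956 genes on the array. The 4 groups were Lamp2a knockdown cells at day 2, Lamp2a knockdown cells at day 0, control cells at day 2 and control cells at day 0, with 1 array per group. At day 0 the cells had grown to confluence in medium with 10% serum. At day 2 the same medium had been supplemented with 250 nM dexamethasone, 0.5 mM isobutylmethylxanthine, a phosphodiesterase inhibitor, and 160 nM insulin. All groups share the line and the serum, and no day 2 culture without the hormones was analysed here, so the hormones and the time after confluence cannot be told apart. Neither the way the knockdown was made nor whether the cells are 1 clone is given in the sources used here.

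LAMP2A, a splice product of the gene Lamp2, sits in the lysosomal membrane as the receptor of chaperone-mediated autophagy, in which single cytosolic proteins are taken into lysosomes and degraded. The array held 2 Lamp2 probes. The probe for NM_001017959 had a scaled signal of 3.24 in knockdown cells against 11.4 in control cells at day 2, and of 4.76 in knockdown cells against 19.7 in control cells at day 0. The knockdown signal was thus lower by a factor of 3.51 at day 2 and of 4.13 at day 0. The probe for NM_010685 read 62.6 in knockdown cells and 67.7 in control cells at day 2, and 59.7 and 76.7 at day 0, 1.08-fold and 1.29-fold lower in the knockdown. Which splice forms each probe reads is not stated in the files. A scaled signal is the processed spot intensity divided by the 75th percentile of its array, and it is compared between arrays for the same probe only.

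Since each group had 1 array, there is no replicate check, no test was run, and differences are described by their size. The words 2-fold higher and 2-fold lower mark genes whose scaled signal on an array was at least that multiple, or fraction, of the signal on the array it is compared with. The 10 fibroblast and preadipocyte markers were well above background on every array, with summed scaled signals of 875 to 1124. Leukocyte markers summed to 38.4 in knockdown cells and 28.1 in control cells at day 2, and to 31.3 and 17.4 at day 0. Most of this was Itgam, at 14.2 to 35.0, while Ptprc read 0.0275 to 0.0772. Endothelial markers summed to 3.86 in knockdown cells and 3.88 in control cells at day 2, and to 3.05 and 2.93 at day 0. Epithelial markers summed to 0.381 and 0.366 at day 2, and to 0.639 in knockdown cells and 0.178 in control cells at day 0. No marker of these lists was at 0, and their part in the results was not tested. The control day 0 array lay on slide 1 and the other 3 on slide 2, and wherever that array is used its slide and its group cannot be told apart. It also read dim probes lower: the median processed signal of the olfactory receptor genes, which these cells are not known to use, was 23.8 in knockdown cells and 28.9 in control cells at day 2, and 39.8 and 11.2 at day 0. The share of spots well above background was 78.7% in knockdown cells and 84.2% in control cells at day 2, and 88.6% and 67.4% at day 0. Counts of members are therefore set beside the same counts over all genes and over the 11394 bright genes, those with a mean level above the 95th percentile of olfactory receptor genes. Of the 37 members, 34 were bright and 36 were well above background on all 4 arrays. In RNA from whole cultures, fewer cycling cells and less RNA per cycling cell cannot be told apart.

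Genes of G2 and mitosis are transcribed late in the cell cycle. In resting cells the DREAM complex holds them down, and in cycling cells the MuvB core of that complex, joined by the factors B-MYB and FOXM1, activates them. MuvB meets DNA at the cell cycle genes homology region, or CHR, commonly TTTGAA or TTTAAA, often a short way downstream of CCAAT boxes bound by the factor NF-Y. Confluent 3T3-L1 cells that receive the hormone mixture are known to re-enter the cycle for a limited number of divisions, called mitotic clonal expansion, before they turn into adipocytes.

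Promoter sequences in RefSeq annotation of build GRCm38.p6 were listed for 31 of the 37 members. Those not listed were Ccna2, Cdc25c, Foxm1, Kif20a, Aurkb and Tpx2. The promoters of 9 members are shown from base -100 to base -1 of the gene's first listed start, 5′ to 3′ on the gene's strand. The 8 other than Nusap1 are the members that held both kinds of match within these 100 bases, and Nusap1, which held neither, is shown against them. Capitals mark CCAAT and the CHR letters on either strand, so that ATTGG is CCAAT and TTCAAA is TTTGAA read on the other strand. The stretches lie at chr13:100786487-100786586 on the minus strand for Ccnb1, chr10:69352913-69353012 on the minus strand for Cdk1, chr7:122159335-122159434 on the plus strand for Plk1, chr4:118437344-118437443 on the minus strand for Cdc20, chr2:164769829-164769928 on the plus strand for Ube2c, chr19:37376282-37376381 on the plus strand for Kif11, chr5:30666786-30666885 on the plus strand for Cenpa, chr2:119618198-119618297 on the plus strand for Nusap1 and chr11:99024190-99024289 on the minus strand for Top2a.
Ccnb1: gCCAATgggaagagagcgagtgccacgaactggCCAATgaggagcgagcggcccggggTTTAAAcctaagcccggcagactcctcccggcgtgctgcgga
Cdk1: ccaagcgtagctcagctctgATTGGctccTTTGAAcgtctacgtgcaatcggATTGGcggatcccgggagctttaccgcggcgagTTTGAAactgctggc
Plk1: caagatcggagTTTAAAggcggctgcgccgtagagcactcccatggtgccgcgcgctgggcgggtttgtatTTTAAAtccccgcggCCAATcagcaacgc
Cdc20: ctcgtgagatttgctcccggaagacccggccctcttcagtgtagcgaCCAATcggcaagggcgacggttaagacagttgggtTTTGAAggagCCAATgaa
Ube2c: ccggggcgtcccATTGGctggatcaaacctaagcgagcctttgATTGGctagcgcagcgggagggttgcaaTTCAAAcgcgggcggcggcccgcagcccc
Kif11: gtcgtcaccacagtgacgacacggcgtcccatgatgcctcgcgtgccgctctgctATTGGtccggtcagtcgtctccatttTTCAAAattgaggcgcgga
Cenpa: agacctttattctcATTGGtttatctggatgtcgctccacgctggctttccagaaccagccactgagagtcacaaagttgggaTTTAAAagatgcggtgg
Nusap1: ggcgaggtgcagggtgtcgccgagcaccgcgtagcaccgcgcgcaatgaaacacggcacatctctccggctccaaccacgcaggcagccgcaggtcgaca
Top2a: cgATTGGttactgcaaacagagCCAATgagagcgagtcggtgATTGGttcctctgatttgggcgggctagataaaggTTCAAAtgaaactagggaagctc
The CHR letters, TTTGAA or TTTAAA on either strand, were present in the 300 bases around the start in 26 of the 31 members, or 83.9%. The same letters were in 30.6% of the 27025 genes with a promoter in the table and in 27.3% of 33 genes of S phase and DNA replication. At least 1 CCAAT was present in 77.4% of members, against 60.6% of S phase genes and 41.1% of all genes. Both were present in 71% of members, against 18.2% of S phase genes and 12.2% of all genes. Position was described as well, in a window chosen after the matches were seen. The CHR letters lay within 50 bases of the start in 74.2% of members, against 15.2% of S phase genes and 9.54% of all genes. With TTTGAA alone, anywhere in the 300 bases, the share was 74.2% of members and 20.2% of all genes, against 83.9% and 30.6% with both spellings. TTTAAA reads the same on both strands and was counted once, and in Cdca8 the CHR letters overlapped a CCAAT. Neither kind of match was found in Mad2l1, Nuf2 or Nusap1 in this window. In knockdown cells the median log2 ratio of day 2 over day 0 was -1.78 over the 26 members with the CHR letters and -1.63 over the 5 without. For CCAAT the order was the other way, with -1.63 over the 24 members that held it and -2.03 over the 7 without. The ranges overlapped: -2.61 to -0.36 with the CHR letters and -2.53 to -1.54 without. With CCAAT the range was -2.58 to -0.36, and without it -2.61 to -1.54. Cenpf, which held both, enters these medians as a bound. Neither difference was tested. A match of letters is a description and not a binding site.

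**Figure D1:**
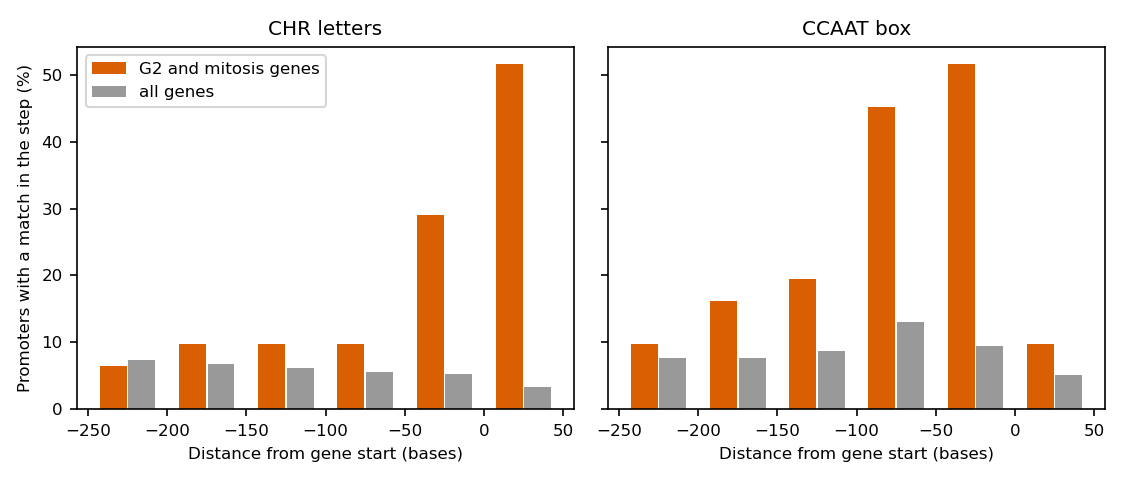
The percent of promoters with at least 1 match to the CHR letters or to CCAAT is plotted in steps of 50 bases from the gene's start, for the 31 listed members and for all 27025 genes. CHR matches of members are most frequent in the first 50 bases after the start, at 51.6% against 3.23% of all genes, and CCAAT matches in the 50 bases before it, at 51.6% against 9.44%.

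The 4 arrays fell into the same order for most members. The knockdown day 0 array was the highest for 36 of the 37 members, with Top2a the exception, and the control day 0 array was next for those 36. The knockdown day 2 array was the lowest for 27 members, the control day 2 array for 9, and the control day 0 array for Top2a alone. Members therefore differed little in the order of the arrays and more in the size of the steps between them. The order was not counted over all genes, so these counts have no background beside them. Cenpf is ranked too, although it was well above background on the knockdown day 0 array alone. With cyclic loess normalization the knockdown day 0 array was the highest for 32 members and the knockdown day 2 array the lowest for 30.

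**Figure D2:**
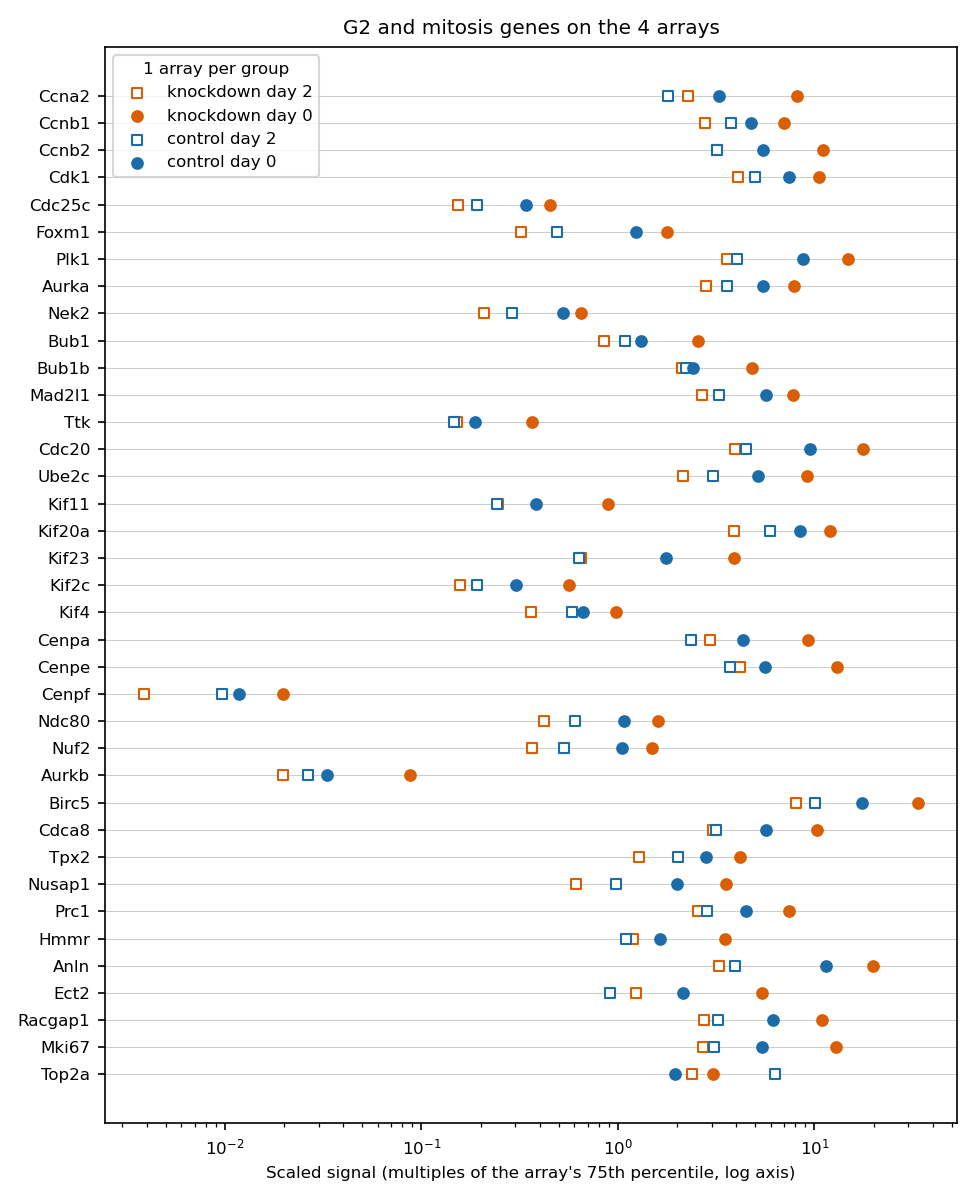
Each row is a member, grouped by role, and the log axis gives its scaled signal, in multiples of the array's 75th percentile, on the knockdown (orange) and control (blue) arrays at day 2 (open squares) and day 0 (filled circles). The filled orange circle lies furthest right in 36 of 37 rows, and in the Top2a row the open blue square does.

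In knockdown cells, 35 of the 37 members were at least 2-fold lower at day 2 than at day 0, or 94.6%, where 9.07% of all genes and 9.22% of bright genes were. None was 2-fold higher, where 5.01% of all genes and 6.17% of bright genes were. The median log2 ratio was -1.76, with a range of -2.61 to -0.36, while the median of the bright genes was 0.08. Both arrays of this comparison lie on slide 2. The members outside the 35 were Top2a and Cenpf.

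In control cells, 7 of 36 compared members were at least 2-fold lower at day 2 than at day 0, or 19.4%, where 8.15% of all genes and 7.75% of bright genes were. These 7 were Foxm1, Plk1, Cdc20, Kif23, Nusap1, Anln and Ect2. Top2a was the only member 2-fold higher, where 20.0% of all genes and 7.60% of bright genes were higher. The median log2 ratio was -0.78, and that of the bright genes was 0.02. Nusap1, at 2.05-fold lower, was just past the threshold and Nuf2, at 1.97-fold, just short of it.

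At day 2, none of 36 compared members was at least 2-fold higher in knockdown cells than in control cells, and Top2a was 2-fold lower. Over all genes 2.89% were higher and 4.10% lower, and over bright genes 3.02% and 3.61%. The median log2 ratio of the members was -0.29, with 27 members below 0 and 9 above it, and that of the bright genes was 0.04. Of 18561 genes compared, 9319 were below 0 and 9033 above it, and of 11394 bright genes 5062 and 6332. At day 0, 11 of 37 members had a signal at least 2-fold higher in knockdown than in control cells, or 29.7%, where 18.4% of all genes and 5.63% of bright genes were. Of the 34 bright members 10 were, or 29.4%. None was 2-fold lower, where 4.20% of all genes and 3.10% of bright genes were, and all 37 had a log2 ratio above 0, from 0.18, a bound for Cenpf, to 1.40. Of 19270 genes compared, 11212 were above 0, and of 11394 bright genes 5473 were. By the rule for bounds, that of Cenpf could not fall below 0. With cyclic loess normalization 3 of the members were below 0: Cdc25c at -0.14, Nek2 at -0.09 and Aurkb at -0.07, and the bound for Cenpf was 0. Markers of other cells were also higher in the knockdown at day 0: 3 of 4 compared epithelial markers by at least 2-fold (median log2 ratio 1.24), 2 of 6 leukocyte markers (0.82) and 1 of 4 endothelial markers (0.27). So were the olfactory receptor genes, 364 of 771 compared by at least 2-fold (median 0.95). The part of these markers in the members' ratios was not tested. The members' median at day 0 was 0.83 and the bright genes' median -0.02. Bub1b, at 2.01-fold, was just past the threshold and Ttk, at 1.96-fold, just short of it.

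The day 2 to day 0 ratio was lower in knockdown than in control cells for each of the 36 members well above background on all arrays. The same held for 8092 of 15465 genes and for 4752 of 11389 bright genes. It was lower by at least 2-fold for 23 of the 36 members, or 63.9%, where 16.9% of all genes and 6.63% of bright genes were. It was 2-fold higher for none, where 2.90% of all genes and 2.66% of bright genes were. The median difference of the log2 ratios was -1.07, with a range of -2.05 to -0.73, and that of the bright genes was 0.08. This difference and the comparisons above share arrays, so they are the same 4 readings seen in several ways. The members lay close together around the threshold: 12 were 2.0 to 2.2-fold lower and 8 were 1.8 to 2.0-fold lower.

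**Figure D3:**
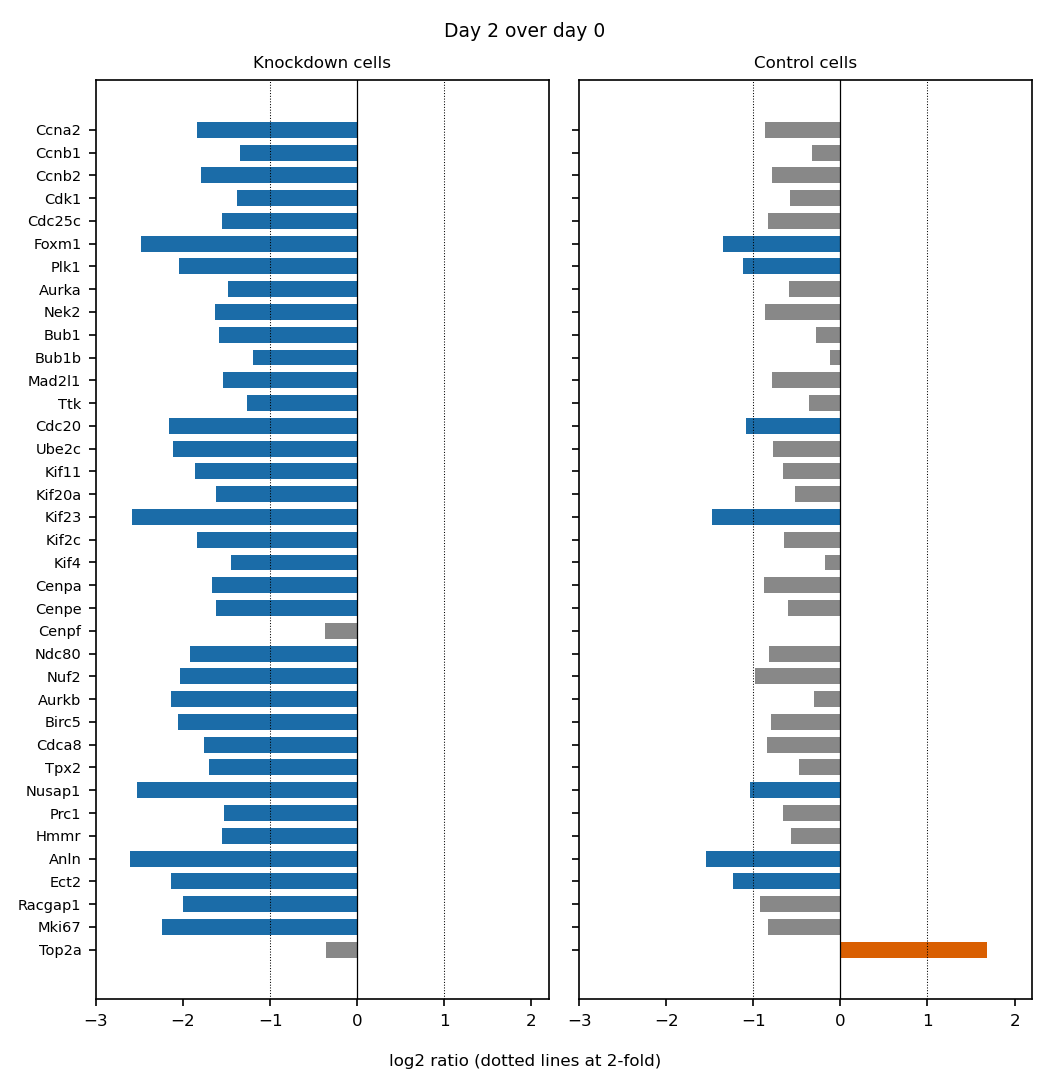
Bars give the log2 ratio of day 2 over day 0 for each member, in knockdown cells (left) and control cells (right). Blue bars are at least 2-fold lower (35 in knockdown cells, 7 in control cells), the orange bar is Top2a in control cells at 1.69, and grey bars are below 2-fold in size.

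Among the 3 cyclins, the kinase CDK1 that drives entry into mitosis and its activating phosphatase, the median log2 ratio of day 2 over day 0 was -1.56 in knockdown cells and -0.78 in control cells. Ccna2, cyclin A2, which acts in S phase and G2, had scaled signals of 2.28 at day 2 and 8.16 at day 0 in knockdown cells, against 1.79 and 3.27 in control cells. Ccna2 was 1.27-fold higher in the knockdown at day 2 and 2.49-fold higher at day 0. Ccnb1, cyclin B1, the partner of CDK1 in mitosis, read 2.76 at day 2 and 7.03 at day 0 in knockdown cells, and 3.76 and 4.73 in control cells. Ccnb2, cyclin B2, read 3.21 and 11.1 in knockdown cells and 3.18 and 5.47 in control cells. The cyclin B genes thus differed in where the kinds of cell parted: Ccnb1 was 1.36-fold lower in the knockdown at day 2 and 1.49-fold higher at day 0, while Ccnb2 was within 1.01-fold at day 2 and 2.03-fold higher at day 0. Cdk1, the mitotic cyclin-dependent kinase, was 2.60-fold lower at day 2 in knockdown cells and 1.49-fold lower in control cells. Cdc25c, the phosphatase that activates CDK1, was 2.94-fold lower in knockdown cells and 1.77-fold lower in control cells.

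Foxm1, the transcription factor that drives G2 and mitosis genes, read 0.319 at day 2 and 1.78 at day 0 in knockdown cells, against 0.488 and 1.24 in control cells. It was 5.57-fold lower at day 2 in knockdown cells and 2.54-fold lower in control cells, among the larger steps of the 37. Of the mitotic kinases, Plk1, which acts from mitotic entry to cytokinesis, read 3.59 and 14.9 in knockdown cells and 4.04 and 8.74 in control cells at day 2 and day 0. Plk1 was 4.15-fold lower at day 2 in knockdown cells and 2.16-fold lower in control cells. Aurka, the spindle pole kinase Aurora A, was 2.79-fold lower in knockdown cells and 1.51-fold lower in control cells. Nek2, a kinase of centrosome separation, had log2 ratios of day 2 over day 0 of -1.63 in knockdown cells and -0.87 in control cells.

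The spindle checkpoint genes, whose products delay anaphase until chromosomes are attached, had the smallest median step in control cells of the 10 role groups other than chromosome structure, at a log2 ratio of -0.32, and -1.40 in knockdown cells. Bub1, a checkpoint kinase, is the member printed in 10 spots per array. Its mean scaled signal over the spots was 0.848 ± 0.0200 at day 2 and 2.54 ± 0.0834 at day 0 in knockdown cells, and 1.08 ± 0.0302 and 1.32 ± 0.0323 in control cells (SD over 10 spots of 1 array). The spots of the 4 arrays did not overlap, with the nearest ranges at 1.03 to 1.13 in control cells at day 2 and 1.26 to 1.36 in control cells at day 0. This is spot error within an array and says nothing of the spread between cultures. Bub1b, which encodes the checkpoint protein BUBR1, read 2.11 and 4.84 in knockdown cells and 2.22 and 2.41 in control cells at day 2 and day 0. It was 2.29-fold lower at day 2 in knockdown cells and 1.09-fold lower in control cells, nearly level. Mad2l1, an inhibitor of CDC20, was 2.91-fold and 1.72-fold lower. Ttk, the checkpoint kinase MPS1, is not among the bright genes and was 2.40-fold and 1.28-fold lower.

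The genes that act on the anaphase-promoting complex, the ubiquitin ligase that ends mitosis, were lower at day 2 on both sides. Cdc20, its mitotic activator, read 3.96 at day 2 and 17.7 at day 0 in knockdown cells, against 4.46 and 9.50 in control cells. Ube2c, its E2 ubiquitin-conjugating enzyme, read 2.13 and 9.22 in knockdown cells and 3.04 and 5.19 in control cells. Cdc20 was 4.48-fold lower in knockdown cells and 2.13-fold lower in control cells, and Ube2c was 4.33-fold and 1.71-fold lower. By contrast, the 13 constant subunits of the same complex had a median log2 ratio of 0.03 in knockdown cells and 0.04 in control cells, with none past 2-fold in either.

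All 5 kinesin motors were lower by at least 2-fold at day 2 in knockdown cells, and in each the ratio differed from that of control cells by at least 2-fold. Under other settings this difference of log2 ratios was as small as -0.68 for Kif2c and -0.83 for Kif11, short of 2-fold. Kif23, a motor of the central spindle needed for cytokinesis, read 0.647 at day 2 and 3.88 at day 0 in knockdown cells, against 0.635 and 1.76 in control cells. Its log2 ratio of day 2 over day 0 was -2.58 in knockdown cells and -1.47 in control cells. Kif11, which pushes the spindle poles apart, read 0.245 and 0.889 in knockdown cells and 0.242 and 0.382 in control cells. Kif11 and Kif23 had log2 ratios of 0.02 and 0.03 for knockdown over control at day 2, and of 1.22 and 1.14 at day 0. Kif4, a chromosome-bound motor, had another pattern, with 0.359 and 0.979 in knockdown cells and 0.583 and 0.660 in control cells. Kif4 was 1.62-fold lower in the knockdown at day 2, next in size to Top2a, and only 1.13-fold lower at day 2 than at day 0 in control cells. Kif20a, a midzone motor, was 3.08-fold lower at day 2 in knockdown cells and 1.43-fold lower in control cells. Kif2c, which depolymerises microtubules at centromeres, was 3.58-fold and 1.57-fold lower.

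At the centromere, Cenpa, the histone H3 variant that marks it, read 2.93 at day 2 and 9.29 at day 0 in knockdown cells, against 2.36 and 4.33 in control cells. Cenpe, a kinetochore motor, read 4.19 and 13.0 in knockdown cells and 3.70 and 5.62 in control cells. Both were above the control at day 2, Cenpa by 1.24-fold and Cenpe by 1.13-fold, and more than 2-fold higher in the knockdown at day 0, by 2.15-fold and 2.30-fold. Ndc80 and Nuf2, which encode partners in the complex that binds microtubules, had like ratios. Ndc80 was 3.79-fold lower at day 2 in knockdown cells and 1.77-fold lower in control cells, and Nuf2 was 4.09-fold and 1.97-fold lower. Cenpf, a large kinetochore protein, was well above background on the knockdown day 0 array alone, at 0.0197. Its comparisons are bounds: at least 1.13-fold higher in the knockdown at day 0, and at least 1.29-fold lower at day 2 in knockdown cells.

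The chromosomal passenger complex corrects faulty attachments and guides cytokinesis. Birc5, which encodes its subunit survivin, read 8.08 at day 2 and 33.8 at day 0 in knockdown cells, against 10.0 and 17.5 in control cells. Birc5 was 4.18-fold lower at day 2 in knockdown cells and 1.74-fold lower in control cells. Cdca8, which encodes borealin, had log2 ratios of -1.76 in knockdown cells and -0.85 in control cells. Aurkb, the kinase of the complex, was dim, at 0.0198 and 0.0870 in knockdown cells and 0.0266 and 0.0329 in control cells. Aurkb had the highest log2 ratio of any member in the knockdown at day 0, 1.40, but the spot SD of a log2 ratio was 0.38 for dim probes in that comparison and 0.07 for bright ones.

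Among genes of spindle assembly and the midzone, Nusap1, which encodes a microtubule-bundling protein, read 0.611 at day 2 and 3.53 at day 0 in knockdown cells, against 0.981 and 2.01 in control cells. Nusap1 was 5.78-fold lower at day 2 in knockdown cells and 2.05-fold lower in control cells. It did so with neither CHR letters nor CCAAT in the listed promoter window shown above. Tpx2, an activator of Aurora A, was 3.26-fold lower in knockdown cells and 1.39-fold lower in control cells. Prc1, which crosslinks midzone microtubules, was 2.88-fold and 1.58-fold lower, and Hmmr, a spindle-associated receptor of hyaluronan, 2.94-fold and 1.49-fold lower.

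The cytokinesis genes had the lowest median in control cells of any role group with more than 1 member, at a log2 ratio of -1.24, and -2.13 in knockdown cells. Anln, which encodes the actin-binding scaffold anillin, read 3.28 at day 2 and 20.0 at day 0 in knockdown cells, against 3.95 and 11.5 in control cells. Anln was 6.10-fold lower at day 2 in knockdown cells and 2.91-fold lower in control cells, the lowest ratio of any member in each. Ect2, the exchange factor that activates RhoA at the cleavage furrow, read 1.23 and 5.41 in knockdown cells and 0.913 and 2.15 in control cells. Ect2 was 1.35-fold higher in the knockdown at day 2, the highest ratio of any member there, and 2.51-fold higher at day 0. Racgap1, the partner of KIF23 in centralspindlin, was 4.01-fold lower at day 2 in knockdown cells and 1.90-fold lower in control cells.

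The 2 genes of chromosome structure differed. Mki67, which encodes the proliferation marker Ki-67 of the mitotic chromosome surface, read 2.71 at day 2 and 12.8 at day 0 in knockdown cells, against 3.07 and 5.43 in control cells. Mki67 was 1.13-fold lower in the knockdown at day 2 and 2.36-fold higher at day 0. Top2a, the topoisomerase that untangles sister chromatids, stood apart from every other member. It read 2.37 at day 2 and 3.05 at day 0 in knockdown cells, against 6.32 and 1.96 in control cells, so the control day 2 array was its highest. Top2a was 3.22-fold higher at day 2 than at day 0 in control cells and 1.28-fold lower in knockdown cells. In the knockdown it was 2.66-fold lower at day 2 and 1.55-fold higher at day 0. The Top2a value rests on 1 probe in 1 spot per array. The stretch of the Top2a promoter shown above holds the CHR letters and 3 CCAAT matches, and the whole listed promoter holds 6 CCAAT matches.

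**Figure D4:**
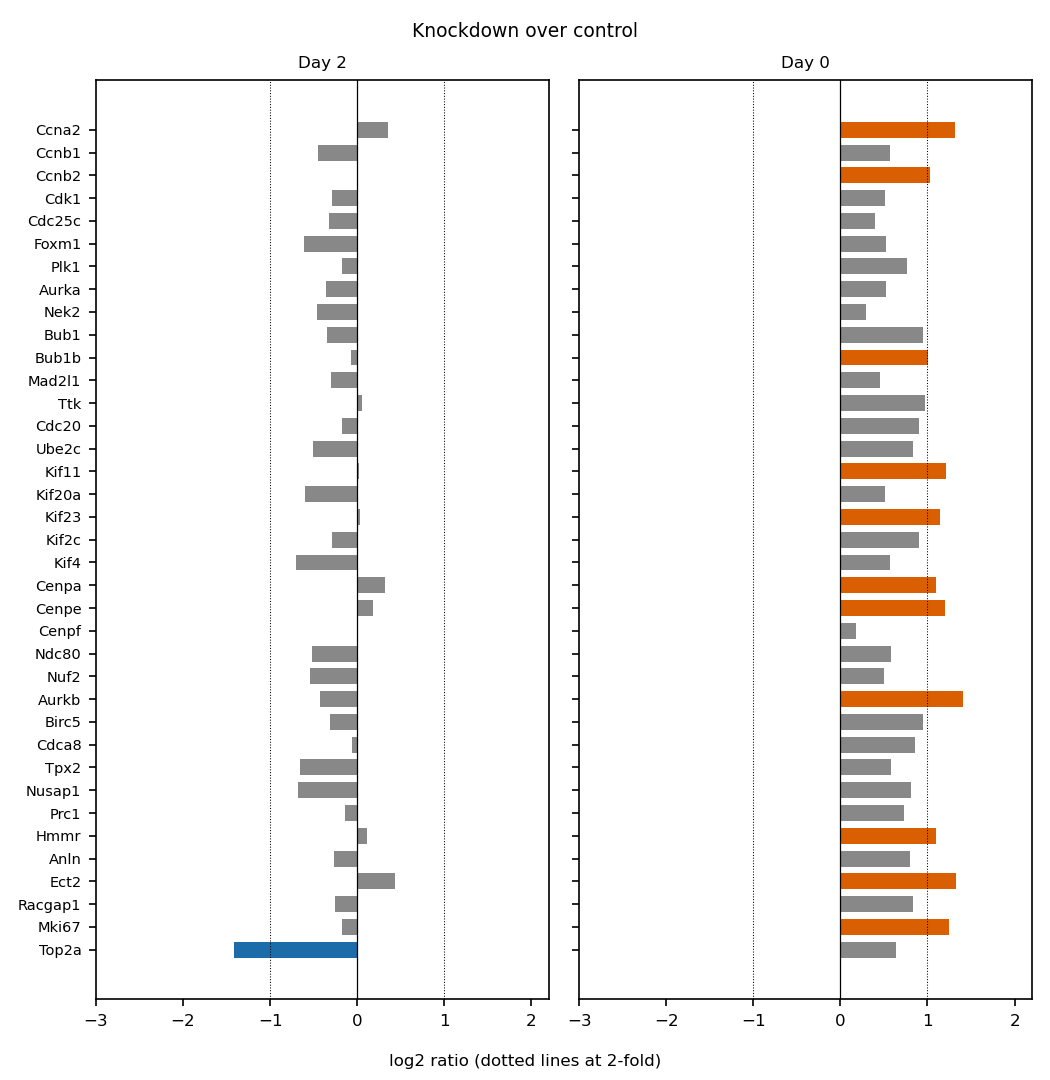
Bars give the log2 ratio of knockdown over control cells for each member at day 2 (left) and day 0 (right). At day 2 most bars lie below 0 and the blue bar is Top2a at -1.41, while at day 0 all 37 bars lie above 0 (with cyclic loess normalization 3 were below it and the Cenpf bound was at it), and the 11 orange bars are at least 2-fold.

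Where a gene had further probes they mostly gave the same direction. The 12 members with more than 1 probe had 16 other probes, and all 16 had the sign of the chosen probe for knockdown against control at day 2 and at day 0, and for day 2 against day 0 in knockdown cells. For day 2 against day 0 in control cells 14 did, the exceptions being dim probes of Cdk1 and Tpx2 with log2 ratios of 1.27 and 0.17. Sizes were less stable than signs, with a median gap between probes of 0.25 in the knockdown time course and 0.33 in the control one. For Ccnb1 the probe used gave a log2 ratio of -1.35 in knockdown cells, and its other probes gave -2.50 and -2.62. In that comparison 14 of the 16 other probes lay on the same side of 2-fold as the probe used. The dim probes of Cdk1 and Tpx2 did not, at -0.07 and -0.57, where the probes used gave -1.38 and -1.71.

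The wider mitotic machinery was read from lists of related genes. Over all genes, 9.07% were at least 2-fold lower at day 2 in knockdown cells and 8.15% in control cells. Over bright genes these shares were 9.22% and 7.75%. Of 30 other spindle and motor genes, 24 were at least 2-fold lower at day 2 than at day 0 in knockdown cells, with a median log2 ratio of -1.64, against 2 lower and a median of -0.77 in control cells. The largest in knockdown cells were Pimreg, Gtse1 and Melk. Pimreg read 0.680 at day 2 and 5.48 at day 0 in knockdown cells, against 0.998 and 2.88 in control cells, and was 8.06-fold lower at day 2 in knockdown cells. Gtse1, whose product regulates microtubules in mitosis, was 5.63-fold lower and Melk, a kinase of proliferating cells, 5.14-fold lower. Of 31 other kinetochore and checkpoint genes, 17 were lower in knockdown cells (median -1.17) and none in control cells (median -0.48). They included Spc24, a partner of Ndc80, at 4.39-fold, and Knl1, a kinetochore scaffold, at 3.93-fold.

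Genes of chromosome cohesion moved less as a list. Of 17 condensin, cohesin and separase genes, 7 were lower in knockdown cells (median -0.29) and none in control cells (median -0.19). Those with periodic roles led it: Espl1, separase, was 4.14-fold lower, Cdca5, the cohesion factor sororin, 3.42-fold, and Pttg1, securin, 2.80-fold. Of 16 regulators of mitotic entry and exit, 4 were lower in knockdown cells (median -0.17). Pkmyt1, an inhibitory kinase of CDK1, was 3.98-fold lower, Cdc25b, an activating phosphatase, 3.38-fold, and Fbxo5, the inhibitor EMI1 of the anaphase-promoting complex, 3.31-fold. Fzr1, the activator of that complex in G1, read 4.40 at day 2 and 5.99 at day 0 in knockdown cells, against 4.21 and 5.01 in control cells, 1.36-fold and 1.19-fold lower.

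Of 22 transcription regulators of the cell cycle, 5 were lower and 1 higher in knockdown cells (median -0.02). E2f8 and E2f7, atypical repressors of the E2F family, were 5.95-fold and 4.95-fold lower, and E2f2, an activator, 3.92-fold. Mybl2, B-MYB, read 1.15 at day 2 and 4.51 at day 0 in knockdown cells, against 1.58 and 2.27 in control cells, and was 3.92-fold lower in knockdown and 1.44-fold lower in control cells. Rbl2, which encodes p130, the pocket protein of DREAM, was 1.09-fold higher in knockdown cells and 1.24-fold lower in control cells at day 2. Of 8 CDK inhibitors, 2 were lower in knockdown cells. Cdkn1a, p21, read 3.88 at day 2 and 3.72 at day 0 in knockdown cells, against 4.58 and 6.62 in control cells, so that it was 1.18-fold lower in the knockdown at day 2 and 1.78-fold lower at day 0. Cdkn1b, p27, read 11.3 and 7.60 in knockdown cells and 10.6 and 8.68 in control cells. Cdkn2c, p18, was 1.14-fold and 1.43-fold higher at day 2 than at day 0. The 2 that were lower were Cdkn1c, p57, 6.09-fold with dim signals, and Cdkn3, a phosphatase of CDKs, 4.05-fold.

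Genes of S phase and DNA replication had medians in the same direction as the members, but smaller in size. Of 41, 23 were lower at day 2 in knockdown cells (median -1.11), where 9.07% of all genes were. In control cells 2 were lower (median -0.42), where 8.15% of all genes were. At day 0, 3 were higher in the knockdown (median 0.52), where 18.4% of all genes and 5.63% of bright genes were. Tk1, thymidine kinase, read 1.51 at day 2 and 9.96 at day 0 in knockdown cells, against 2.63 and 4.96 in control cells, and was 6.58-fold lower in knockdown cells. Uhrf1, which maintains DNA methylation, was 5.50-fold lower and Mcm5, a subunit of the replicative helicase, 4.26-fold. The ratio was lower than in control cells by at least 2-fold in 13 of 40 S phase genes and in 23 of 36 members. Over all genes 16.9% were, and over bright genes 6.63%. Among the 7 G1 cyclins and kinases directions were mixed. Ccnd1, cyclin D1, read 4.51 at day 2 and 36.8 at day 0 in knockdown cells, against 10.2 and 30.0 in control cells. Ccnd3, cyclin D3, read 60.2 and 25.1 in knockdown cells and 59.2 and 49.4 in control cells. Ccnd1 was 8.16-fold lower and Ccnd3 2.40-fold higher at day 2 in knockdown cells, and Cdk6, a partner of the D cyclins, was 3.04-fold lower. The 14 housekeeping genes had a median log2 ratio of 0.17, with none past 2-fold in knockdown cells.

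**Figure D5:**
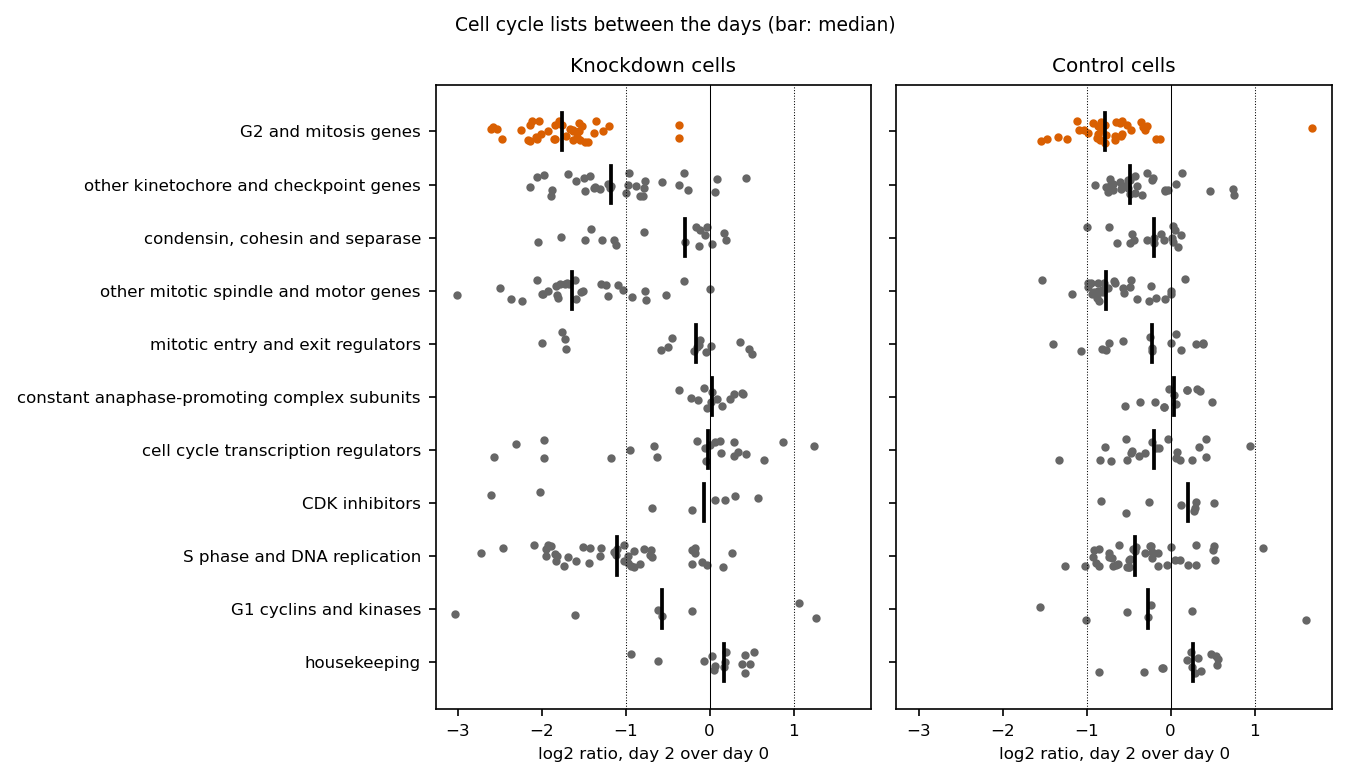
Each dot is a gene, the horizontal axis is its log2 ratio, and each black bar is the median of a list. In the time course of knockdown cells the medians of the members (-1.76), other spindle genes (-1.64) and S phase genes (-1.11) lie below 0, and that of the constant anaphase-promoting complex subunits (0.03) lies at it.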

How the data were processed

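RNA from 4 cultures of 3T3-L1 cells was hybridised to 1-colour Agilent mouse arrays, 1 culture per array, and groups were taken from the labels. Per the file headers, Agilent Feature Extraction 10.7.3.1 was used, and a background was subtracted from each spot. Detrending was inferred from spots with signals above 1000. On 3 arrays, but not on the knockdown day 0 array, their ratio of processed to background-subtracted signal varied, which was taken as detrending. The deposited processed signals are linear intensity values that had not been brought to a common scale across arrays. From these, log2 of the processed signal minus the array's 75th percentile was computed, control and outlier spots were left out, and spots of a probe were averaged. Accessions in a GRCm38.p6 gene table named 27656 of 55681 probes, and 28025 did not match. Genes had to be well above background on at least 1 array of a comparison. Where only 1 was, the dim side took its own level or, if higher, the lowest one well above background on that array, which gives a bound, and where that bound pointed the wrong way it was set to 0. The difference between the days' ratios uses genes well above background on all 4 arrays. The members, the companion lists and the settings were chosen with earlier results of these data known. Named are all 37 members, up to 3 genes per companion list past 2-fold in the knockdown time course by size, and Cdkn1a, Cdkn1b, Cdkn2c, Fzr1, Rbl2, Mybl2 and Lamp2. A gene that this rule took is not reported here. Alternatives were normexp background correction (offset 50, on the median spot signal), no detrending, quantile and cyclic loess normalization (3 iterations), other scaling, filters and probe rules, a 1.5-fold size, and keeping outlier spots. Precision is limited by the number of arrays, and the 399 probes printed 10 times measure error within arrays only. Python 3.11.15, numpy 2.4.6, pandas 2.3.3, matplotlib 3.10.9, R 4.3.3 and limma 3.58.1 were used. Probe positions in the files, on a different build, were not used.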

Additional observations from a re-analysis of the deposited data

Results flagged for a closer look

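Some members differed in the sign of the log2 ratio between the kinds of cell or the days, with at least one side past 2-fold and a difference of at least 2-fold. None of these differences was tested, since each group had 1 array. Top2a had a log2 ratio of day 2 over day 0 of -0.36 in knockdown cells and 1.69 in control cells, a difference of -2.05. For knockdown over control, Top2a had a log2 ratio of -1.41 at day 2 and 0.63 at day 0. Aurkb had -0.43 at day 2 and 1.40 at day 0, a difference of -1.83, with dim signals. Over the settings tried, this difference for Aurkb ran from -2.11 to -0.22. Mki67 had -0.18 at day 2 and 1.24 at day 0, a difference of -1.42. Bub1b had -0.07 at day 2 and 1.01 at day 0, a difference of -1.08. Its day 2 value was close to the spot SD of 0.065 for bright probes there, so Bub1b was about level at day 2. The median over the members was -0.29 at day 2 and 0.83 at day 0. The day 0 values rest on the control day 0 array, alone on slide 1.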

How the results depend on the processing

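No paired analysis was possible because each group had 1 array and the labels number no replicates, and leaving out a replicate and the slide as a block were not run for the same reason. In knockdown cells, the count of members at least 2-fold lower at day 2 was 34 or 35 of 37 under every setting tried. Aurkb, among the 35 as reported, had a log2 ratio there as small as -0.67 under other settings, short of 2-fold. With normexp background correction, 7 members were 2-fold higher in the knockdown at day 0, where 7.02% of all genes were. The members' median log2 ratio was then -0.20 for knockdown over control at day 2 and -1.69 for day 2 over day 0 in knockdown cells, and the median difference was -0.99. Quantile normalization gave 11 members lower at day 2 in control cells. Cyclic loess gave 15 there, with a median of -0.87, and medians of -1.87 in the knockdown time course and 0.75 for knockdown over control at day 0. Under it Aurkb, 1.40 as reported for day 0, was -0.072. Scaling to probes well above background gave a median difference of -1.15. With that scaling, 27 of 36 members had a ratio at least 2-fold lower in the knockdown, where 18.6% of all genes had. This count was 17 with normexp, where 7.87% of all genes were lower, and 20 with cyclic loess, where 5.96% were. At a 1.5-fold size, 6 members were lower in the knockdown at day 2 and 24 higher at day 0, 25 were lower at day 2 in control cells and 36 differed in ratio. Shares of all genes at the 1.5-fold size are not given, so these counts have no background beside them. The cause of these shifts was not tested. Quantile and cyclic loess normalization moved the median of all genes by -0.12 at day 0 and by -0.19 in control cells between the days. All genes called higher and lower in the knockdown at day 0 were 18.4% and 4.20% as reported, 5.72% and 6.72% with quantile, and 5.16% and 8.96% with cyclic loess. In control cells between the days they were 20.0% and 8.15%, 6.80% and 11.4%, and 6.18% and 14.1%. Of 1636 values of single members under the other settings, 1564 stayed on the same side of 2-fold. The sign changed in 12, from 6 members: for knockdown over control, Ccnb2, Kif11, Kif23 and Aurkb at day 2 and Cdc25c, Nek2 and Aurkb at day 0, and Aurkb between the days in control cells. Aurkb at day 0 was the only one of them past 2-fold as reported. Changing the filter on dim probes cannot alter a member well above background on the arrays compared. Likewise, the median over probes cannot alter a member with 1 probe. Part of the 1564 was thus fixed in advance, and that count does not measure stability. Signal over background limits Cenpf, Aurkb and Ttk, which are not bright.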
